A study of Mus musculus with 36 samples.

Results

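Cathepsin E (Ctse) and 6 further genes of gastric-type mucosa, Tff1, Tff2, Muc1, Muc4, Muc5ac and Aqp5, were followed in mouse intestinal organoids, 7 of the 52636 genes counted. Ctse was selected on its measured counts, being far higher in SCM and with Wnt5a than in complete media, so its values in those conditions against complete media are a description without a test. The other 6 genes were listed beside it by name, with earlier results of these data known. Organoids were grown from jejunal crypts of C57BL/6 mice and kept for 2 days in the test media. There were 6 conditions of 6 libraries each. Control IgG was present in 4 of them, named complete media + IgG, QCM + IgG, SCM + IgG and, for the added ligand, Wnt5a + IgG. The antibody anti-Ptk7 took its place in SCM + anti-Ptk7 and in Wnt5a + anti-Ptk7. Complete media is a commercial organoid growth medium (IntestiCult). QCM and SCM are media conditioned by mouse embryonic fibroblasts that were quiescent (serum deprived) or senescent (X-ray or doxorubicin, which of them was used for these libraries is not stated). Wnt5a, a ligand of the noncanonical Wnt pathway, was added to complete media. Every culture thus held an antibody, anti-Ptk7 being directed against the Wnt co-receptor Ptk7, and complete media with anti-Ptk7 was not analysed here. Crypts came from 6 mice, but the labels do not say which replicate number was which mouse, nor their age, so the p-values measure the spread between these libraries.

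In the stomach, surface mucous cells secrete the gel-forming mucin Muc5ac together with the trefoil peptide Tff1, and mucous neck and deep gland cells secrete Muc6 together with Tff2. Cathepsin E is an intracellular aspartic protease of the gastric surface epithelium, Muc1 and Muc4 are mucins anchored in the cell membrane, and Aqp5 is a water channel of secretory gland cells. Goblet cells of the small intestine secrete Muc2 and Tff3 instead, and gastric-type genes are known to appear in intestinal mucosa during chronic injury and repair.

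Levels are given as CPM, the counts of a gene per 1000000 counts of its library after TMM scaling, which corrects library sizes for differences in composition. A gene with a mean under 0.5 CPM over the 36 libraries was reported as not detected. By that rule 3 of the 7 genes were detected, namely Ctse (mean 29.8 CPM), Muc4 (6.94 CPM) and Tff1 (2.46 CPM). Tff2 (0.144 CPM), Muc1 (0.0892 CPM), Muc5ac (0.0242 CPM) and Aqp5 (0.0114 CPM) were not. Library totals ran from 9581589 to 21029769 counts, at which 3 counts in a single library corresponded to 0.141 to 0.313 CPM. The differences were tested with the quasi-likelihood test of edgeR over 15497 genes, and a gene was called at a Benjamini-Hochberg adjusted p under 0.05 with a fold change over 1.5. The detected genes were the 3 of the 7 that passed the filter on low counts.

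On GRCm38 the protein-coding gene Ctse lies at chr1:131638306-131675505 on the plus strand, and Muc4 at chr16:32735886-32782391 on the plus strand. Tff1 (chr17:31161395-31165277) and Tff2 (chr17:31141049-31144282) are neighbors on the minus strand. Muc1 is at chr3:89229057-89233381, Muc5ac at chr7:141788972-141819231 and Aqp5 at chr15:99590782-99594829, all on the plus strand. The cDNA kit does not mark strand, so reads of Tff1 and of its antisense gene Gm15318 (mean 0.807 CPM) cannot be told apart where the genes overlap. The same holds for Muc4 and Muc20 (mean 0.851 CPM), which overlap on opposite strands.

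Promoter windows of RefSeq (GRCm38.p6), from 250 bases before to 50 bases after the start site, were at hand for 3 of the 7 genes, Muc1, Muc4 and Aqp5. Of these only Muc4 was detected, and its upstream 250 bases (chr16:32735636-32735885, plus strand) are printed because it is the one detected gene with a window. Capitals mark a match to GGAATG, the core letters bound by TEAD factors, read from the opposite strand.
Muc4: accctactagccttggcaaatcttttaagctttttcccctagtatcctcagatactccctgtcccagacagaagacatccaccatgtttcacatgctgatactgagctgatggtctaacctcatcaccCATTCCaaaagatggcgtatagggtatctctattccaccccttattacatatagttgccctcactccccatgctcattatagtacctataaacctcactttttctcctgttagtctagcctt
The match begins 122 bases before the start site. On both strands, GGAATG occurs in 14.7% of the 32851 windows in the RefSeq table, the AP-1 letters TGANTCA in 7.81% and the GATA letters AGATAA in 11.2%. The Muc4 window held no TGANTCA and 2 matches to AGATAA, both after the start site and clear of the first match. The Muc1 window held 1 match to GGAATG, and the Aqp5 window held none of the 3 motifs. A match is a description of the letters and not a measured site.

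Ctse was close to absent in complete media and highest with Wnt5a. In complete media + IgG it was at 0 in 4 of 6 libraries and at most 1.09 CPM (mean 0.216 ± 0.436, SD, n = 6). In QCM + IgG it ran from 0 through a median of 0.993 to 3.43 CPM (mean 1.26 ± 1.22, n = 6), so the 2 control media overlapped. In SCM + IgG the values spread from 1.28 through 7.53 to 18.3 CPM (mean 9.17 ± 7.64, n = 6). In SCM + anti-Ptk7 they spread from 2.13 through 8.58 to 17.5 CPM (mean 8.83 ± 5.83, n = 6), which covers nearly the same range. In Wnt5a + IgG the lowest library was at 29.2 CPM, the median at 41.6 and the highest at 133 CPM (mean 61.9 ± 42.8, n = 6). In Wnt5a + anti-Ptk7 the values were 38.9, 60.0 and 234 CPM (mean 97.2 ± 76.6, n = 6). No library with Wnt5a was as low as any library without it, and the lowest SCM + IgG library lay above the highest complete media library, as the choice of Ctse for these groups leads to (6.29% of the genes tested did not overlap there). In bulk RNA, more cells with Ctse and more Ctse RNA per cell cannot be told apart.

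**Figure D1:**
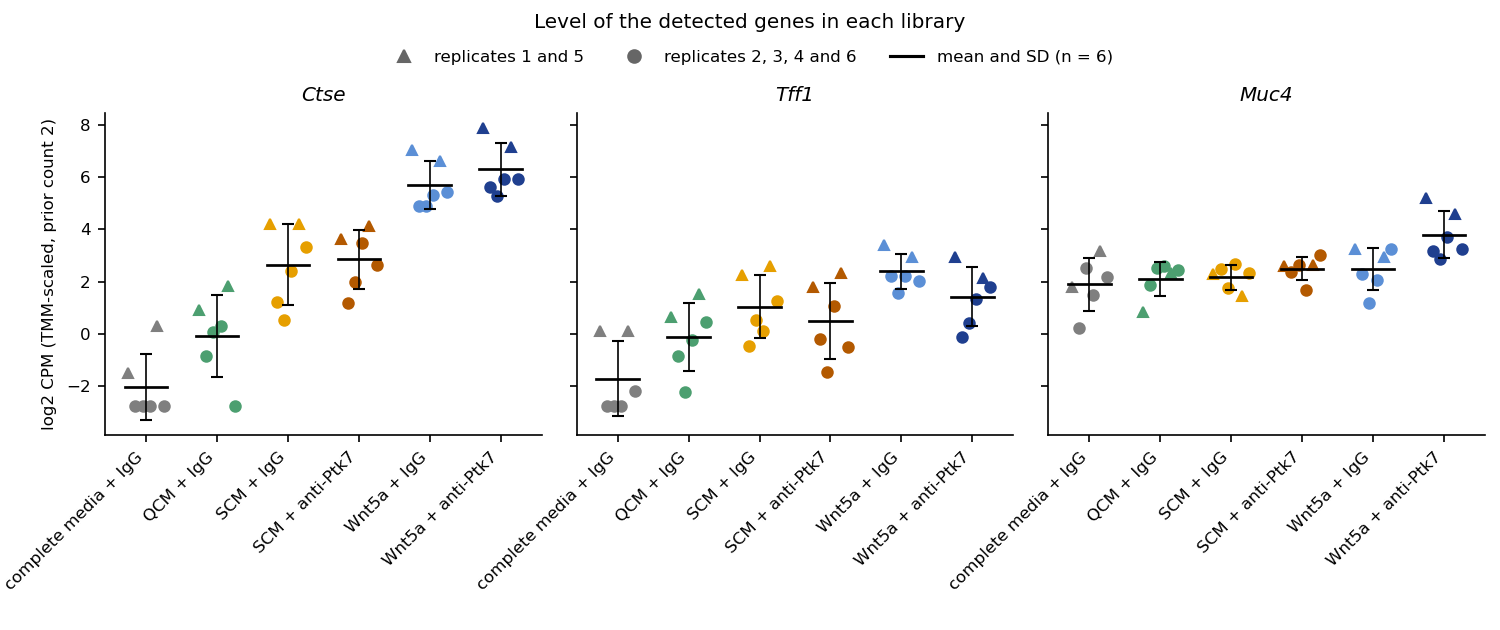
Each point is 1 library and gives log2 CPM (TMM-scaled, prior count 2) of Ctse, Tff1 and Muc4 in the 6 conditions. Triangles are replicates 1 and 5, circles the other replicates, and black lines the mean and SD over 6 libraries. Ctse climbs from complete media to Wnt5a, Tff1 climbs less, and Muc4 stays level except in Wnt5a + anti-Ptk7.

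Comparisons among QCM + IgG, SCM + anti-Ptk7 and Wnt5a + anti-Ptk7 contrast none of the libraries by which Ctse was picked, and Ctse differed in all 3. The edgeR estimate of the spread was shared over all 36 libraries, those included, while the permutation tests below compare only the libraries named. With Wnt5a + anti-Ptk7 it was higher than in QCM by 6.26 on the log2 scale (SE 0.732, edgeR adjusted p = 9.35e-08), where 14.7% of the genes tested were called. With Wnt5a + anti-Ptk7 it was higher than in SCM + anti-Ptk7 by 3.47 (SE 0.607, edgeR adjusted p = 0.00309), where 1.53% were called. The libraries overlapped in neither comparison, as for 15.5% and 1.77% of the genes tested, and in an exact two-sided permutation test of log2 CPM each gave p = 0.00216 (0.00649 adjusted over 6 comparisons), the smallest that 6 against 6 libraries can give. In SCM + anti-Ptk7 it was higher than in QCM by 2.79 (SE 0.708, edgeR adjusted p = 0.0097, exact permutation p = 0.00433, adjusted 0.00866), where 3.05% were called and the libraries overlapped. Without QCM replicate 5 the differences from QCM were 6.90 with Wnt5a + anti-Ptk7 and 3.43 in SCM + anti-Ptk7, and both calls were kept. The call in SCM + anti-Ptk7 was not made by voom with limma, the method of the study, which gave 3.22 at an adjusted p of 0.147. Between SCM + IgG and QCM + IgG the fitted difference of Ctse was 2.83, given without a test because the SCM + IgG libraries served to pick the gene, and the libraries overlapped.

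The complete media libraries served to pick Ctse, so its difference between the 2 control media is given without a test. In QCM it was higher than in complete media by a fitted 2.46 on the log2 scale, with overlap of the libraries, where 0.374% of the genes were called. Its size rested on few counts in complete media, as it was 4.87 without complete media replicate 5, 1.82 without QCM replicate 5 and 6.10 without replicates 1 and 5 of every condition. Blocking on the replicate number gave a difference of 2.49.

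The Ctse libraries with anti-Ptk7 and with IgG overlapped in both media. The IgG libraries served to pick the gene, so these differences too are given without a test. In SCM the fitted difference of anti-Ptk7 from IgG was -0.04 on the log2 scale, and 1.23% of the genes were called. With Wnt5a it was 0.65, and 0.884% were called. When libraries of the same replicate number were set side by side, Ctse was higher with anti-Ptk7 in 6 of 6 pairs with Wnt5a, by ratios from 1.33 to 1.77 with a median of 1.48. In SCM it was higher in 2 of 6 pairs, with ratios from 0.621 to 2.94. Blocking on the replicate number gave a Wnt5a difference of 0.61.

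**Figure D2:**
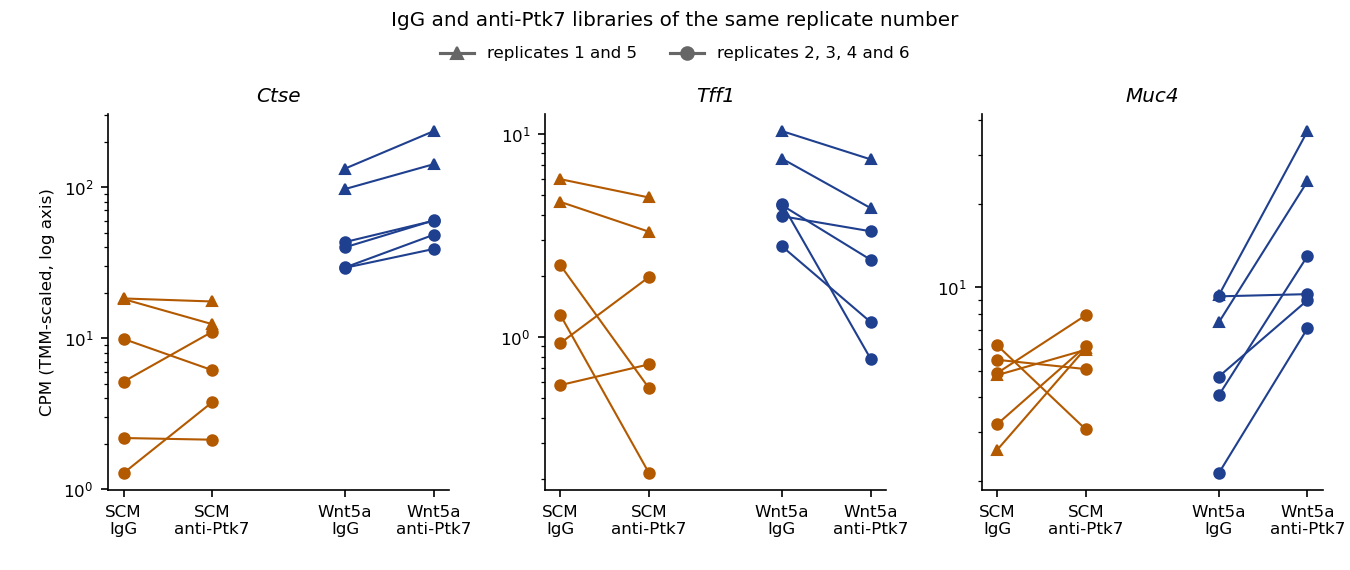
Each line joins the IgG and the anti-Ptk7 library of 1 replicate number, in SCM (orange) and with Wnt5a (blue). The axis is TMM-scaled CPM on a log scale, and triangles are replicates 1 and 5. With Wnt5a all 6 lines rise for Ctse and Muc4 and all 6 fall for Tff1, while in SCM the lines cross.

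Tff1, the trefoil peptide of gastric surface mucous cells, was higher in SCM and with Wnt5a than in complete media. In complete media + IgG it was at 0 in 3 of 6 libraries with a median of 0.037 and a highest value of 0.938 CPM (mean 0.324 ± 0.475, SD, n = 6). In QCM + IgG it ran from 0.065 through 0.954 to 2.76 CPM (mean 1.09 ± 0.954, n = 6), and in SCM + IgG from 0.579 through 1.77 to 5.97 CPM (mean 2.61 ± 2.20, n = 6). In Wnt5a + IgG the lowest library was at 2.79, the median at 4.48 and the highest at 10.3 CPM (mean 5.59 ± 2.80, n = 6). All Wnt5a + IgG libraries lay above all complete media libraries, where 11.7% of the genes tested did not overlap in either direction, while SCM + IgG overlapped with them.

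In numbers, Tff1 rose by 4.12 on the log2 scale with Wnt5a (SE 0.840, edgeR adjusted p = 0.00049), where 10.2% of the genes tested were called. In SCM it rose by 3.01 (SE 0.838, edgeR adjusted p = 0.0153), where 6.08% were called. Voom with limma gave 3.16 at an adjusted p of 0.0951 for SCM, so that call was lost, and kept the call for Wnt5a. With each library left out the SCM rise ran from 2.58 to 3.81 and the Wnt5a rise from 3.83 to 4.93, with the calls kept. The complete media libraries moved them most, as the rises were 3.81 and 4.93 without replicate 5 and 3.60 and 4.72 without replicate 1. These 2 comparisons share the complete media libraries. In QCM Tff1 was higher by 1.78 without a call (SE 0.857, edgeR adjusted p = 0.407). The call was made with the replicate number as a block (1.97, edgeR adjusted p = 0.0409). For Tff1 the difference between SCM and QCM was 1.23 (95% interval -0.18 to 2.64, edgeR adjusted p = 0.394), where 0.903% of the genes were called.

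With anti-Ptk7 the Tff1 values differed from IgG by less than the spread between libraries. In SCM + anti-Ptk7 they ran from 0.213 through 1.35 to 4.86 CPM (mean 1.94 ± 1.83, n = 6), and in Wnt5a + anti-Ptk7 from 0.780 through 2.85 to 7.48 CPM (mean 3.24 ± 2.45, n = 6). The difference from IgG was -0.41 in SCM (95% interval -1.78 to 0.96, edgeR adjusted p = 0.816) and -0.78 with Wnt5a (95% interval -2.11 to 0.54, edgeR adjusted p = 0.655). The SCM value lost its sign without SCM + IgG replicate 5 (0.0046, edgeR adjusted p = 0.998) and was -0.92 without SCM + anti-Ptk7 replicate 5 (edgeR adjusted p = 0.564). In the pairs of equal replicate number Tff1 was lower with anti-Ptk7 in 6 of 6 with Wnt5a, at ratios from 0.172 to 0.843, and in 4 of 6 in SCM. Against QCM, Tff1 with Wnt5a + anti-Ptk7 was higher by 1.56 without a call (SE 0.719, edgeR adjusted p = 0.0944). The replicate block gave 1.66 and a call (edgeR adjusted p = 0.00364), and so did leaving out QCM replicate 5 (2.09, edgeR adjusted p = 0.0396). In SCM + anti-Ptk7 the difference of Tff1 from QCM was 0.82 (95% interval -0.60 to 2.24, edgeR adjusted p = 0.524), and that between Wnt5a + anti-Ptk7 and SCM + anti-Ptk7 was 0.74 (95% interval -0.62 to 2.10, edgeR adjusted p = 0.588).

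Muc4, a membrane-anchored mucin, had group means within a narrow range in 5 of the 6 conditions and a higher one in Wnt5a + anti-Ptk7. Its mean was 4.33 ± 2.75 CPM in complete media + IgG, 4.45 ± 1.60 in QCM + IgG, 4.52 ± 1.36 in SCM + IgG, 5.69 ± 1.59 in SCM + anti-Ptk7 and 6.17 ± 2.96 in Wnt5a + IgG (SD, n = 6 each). The libraries of these 5 conditions lay between 1.03 and 9.34 CPM and overlapped throughout. In Wnt5a + anti-Ptk7 the lowest library was at 7.10, the median at 11.2 and the highest at 36.5 CPM (mean 16.5 ± 11.5, n = 6). These libraries overlapped with those of complete media, Wnt5a + IgG and SCM + anti-Ptk7, and lay above all libraries of QCM + IgG, a separation that 15.5% of the genes tested showed in either direction.

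Against Wnt5a + IgG, Muc4 rose with anti-Ptk7 by 1.42 on the log2 scale (SE 0.391, edgeR adjusted p = 0.0407), where 0.452% of the genes tested were called higher. It was 1 called of the 2 detected genes other than Ctse. Muc4 was higher in 6 of 6 pairs of equal replicate number, by ratios from 1.02 to 3.91 with a median of 3.20. The call ended when replicates 1 and 5 of every condition were left out (0.92, edgeR adjusted p = 0.285) and when only the 2 groups compared were fitted (1.42, edgeR adjusted p = 0.124). It also ended without any filter on low counts (1.41, edgeR adjusted p = 0.0576), and when any 1 of 7 libraries was left out, namely Wnt5a + IgG replicate 2, 3, 4 or 5 or Wnt5a + anti-Ptk7 replicate 1, 4 or 5 (1.03 to 1.48, edgeR adjusted p from 0.0507 to 0.155). In SCM the difference of anti-Ptk7 from IgG was 0.32 (95% interval -0.46 to 1.11, edgeR adjusted p = 0.734). The difference between the 2 antibody effects was 1.10 (95% interval 0.01 to 2.19, edgeR adjusted p = 0.999, with 0% of the genes called), so the effects were not shown to differ between the media. For Tff1 the same difference was -0.37 (edgeR adjusted p = 0.999), and for Ctse it was 0.69, given without a test.

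Muc4 in Wnt5a + anti-Ptk7 was also higher than in QCM, by 1.88 (SE 0.398, edgeR adjusted p = 0.000396), where 8.78% of all genes were called higher. It was higher than in SCM + anti-Ptk7 by 1.54 (SE 0.394, edgeR adjusted p = 0.0243), where 1.53% were called in either direction. Without replicates 1 and 5 both fell short of a call (0.95, edgeR adjusted p = 0.0808, and 0.81, edgeR adjusted p = 0.34). The second call was also lost without SCM + anti-Ptk7 replicate 4 (1.41, edgeR adjusted p = 0.0728) or Wnt5a + anti-Ptk7 replicate 1 (1.14, edgeR adjusted p = 0.157) or 5 (1.40, edgeR adjusted p = 0.0673). Against complete media, Muc4 was not called in any medium, with differences of 0.04 in QCM (95% interval -0.75 to 0.83), 0.06 in SCM (-0.73 to 0.85) and 0.50 with Wnt5a (-0.29 to 1.28, edgeR adjusted p = 0.418). Summed over 9 epithelial markers the libraries of Wnt5a + anti-Ptk7 held 7179 to 10257 CPM, against 7126 to 8002 CPM in Wnt5a + IgG. Of these 9 markers only the Paneth cell lysozyme Lyz1 was called with anti-Ptk7 against IgG with Wnt5a, and it fell by 0.63 on the log2 scale (edgeR adjusted p = 0.00374). Summed over 5 markers of M cells, the antigen-sampling cells of the intestine, the libraries held 99.7 to 220 CPM against 94.2 to 143 CPM, and the highest sums with anti-Ptk7 were those of replicates 1 (220 CPM) and 5 (142 CPM), which also held the most Muc4. The part of such shifts in the Muc4 values was not tested.

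**Figure D3:**
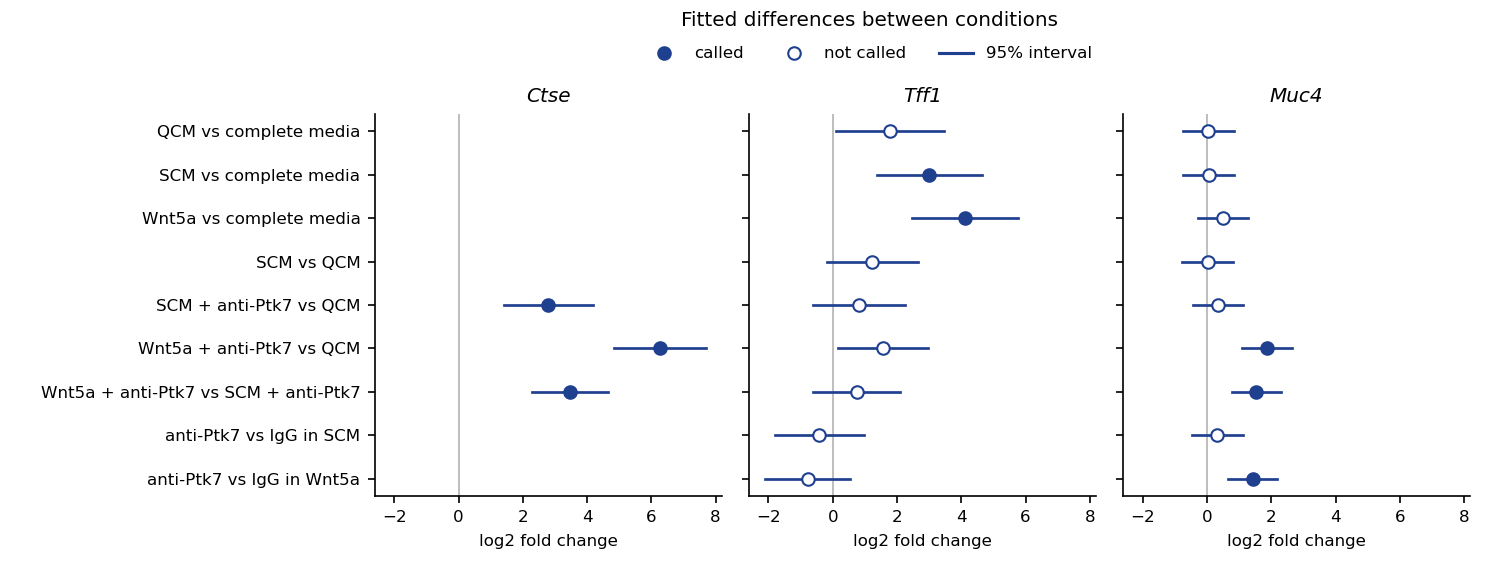
Fitted log2 fold changes of Ctse, Tff1 and Muc4 with 95% intervals, where filled circles are called differences. For Ctse the 3 comparisons that contrast none of the libraries by which it was picked are drawn. Ctse is called in these 3, which are among QCM + IgG and the anti-Ptk7 conditions, Tff1 in SCM and with Wnt5a, and Muc4 where Wnt5a + anti-Ptk7 is compared.

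The 4 genes that were not detected held few counts in any condition. Tff2, the trefoil peptide of mucous neck cells, had 74 counts in 19 of the 36 libraries, none of them in complete media + IgG and at most 0.730 CPM in a library. In the other conditions its mean lay between 0.0457 and 0.239 CPM. Without any filter on low counts Tff2 was called against complete media with Wnt5a (edgeR adjusted p = 0.0237), on 21 counts over 6 libraries against 0. Muc1 had 44 counts in 10 libraries, with its highest mean of 0.215 ± 0.431 CPM in Wnt5a + IgG. Muc5ac, the defining gel-forming mucin of gastric surface cells, had 12 counts in 2 libraries, SCM + anti-Ptk7 replicate 1 with 10 and Wnt5a + anti-Ptk7 replicate 2 with 2. Aqp5 had 4 counts in 2 libraries. A count of 0 over the 6 libraries of a condition allows a level of up to 0.0415 CPM in complete media and 0.0344 CPM in Wnt5a + IgG, so low expression of these genes was not detectable at this depth rather than absent.

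Per kb of exon, which makes genes comparable, the order of the 3 detected genes changed between conditions. In complete media + IgG Tff1 stood at 0.461, Muc4 at 0.368 and Ctse at 0.0683 CPM per kb. The first place of Tff1 there rested on replicates 1 and 5, as the other 4 libraries averaged 0.0185 CPM of Tff1 and 3.42 CPM of Muc4 before division by length. In Wnt5a + IgG Ctse was first with 19.5, ahead of Tff1 with 7.95 and Muc4 with 0.525 CPM per kb. The authors counted reads within coding sequences, so lengths over all exons are an approximation, and for Ctse this order follows from how it was picked.

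Replicates 1 and 5 held the 2 highest Ctse values in 6 of 6 conditions, and the 2 highest Tff1 values in 6 of 6 conditions. Their mean Ctse level was 114.8 CPM in Wnt5a + IgG, against 35.5 CPM in the other 4 replicates. In SCM + IgG it was 18.2 against 4.63 CPM, and in complete media + IgG 0.649 against 0. For Tff1 the means were 8.92 against 3.92 CPM in Wnt5a + IgG and 0.936 against 0.0185 in complete media + IgG. Muc4 showed the same order in 1 of 6 conditions, Wnt5a + anti-Ptk7, with 30.3 against 9.61 CPM. Among the genes tested 136 of 15497 (0.878%) had their 2 highest values in replicates 1 and 5 in every condition. The pattern was noticed in the data and is a description. Without these replicates Ctse kept its 3 calls, at 3.23 in SCM + anti-Ptk7 against QCM (edgeR adjusted p = 0.00342), 6.41 in Wnt5a + anti-Ptk7 against QCM (edgeR adjusted p = 4.15e-07) and 3.18 in Wnt5a + anti-Ptk7 against SCM + anti-Ptk7 (edgeR adjusted p = 0.00182). Tff1 kept its calls against complete media in SCM (edgeR adjusted p = 0.000596) and with Wnt5a (edgeR adjusted p = 9.23e-06) and was also called in QCM (edgeR adjusted p = 0.0404). The complete media libraries then held almost no Tff1, so the fitted sizes are not given.

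Over the 36 libraries log2 CPM of Ctse and Tff1 had a Pearson r of 0.82, and 0.71 after the mean of each condition was subtracted. For Ctse and Muc4 these values were 0.58 and 0.32, and for Tff1 and Muc4 0.38 and 0.23. The points share conditions, replicate numbers and library depth, so the values are descriptions. Among 12456 genes with a mean log2 CPM over 1, those most like Ctse were Paqr5 (r = 0.97), a membrane progestin receptor, Clu (r = 0.95), the secreted chaperone clusterin, and Vill (r = 0.95), a villin-like actin-binding protein. After subtraction of the condition means they were Lgals4 (r = 0.85), the intestinal galectin, Paqr5 (r = 0.84) and S100a16 (r = 0.82). For Tff1 they were Lgals3 (r = 0.93), another galectin, Gpr137b (r = 0.93) and Akr1b8 (r = 0.93), and after subtraction Psca (r = 0.90), a stem cell antigen of prostate and stomach epithelium, Gpr137b (r = 0.88) and Sptssb (r = 0.87). For Muc4 they were Gpa33 (r = 0.76), an intestinal surface glycoprotein, Mettl7a1 (r = 0.76) and Prune1 (r = 0.74), and after subtraction Snrk (r = 0.67), Cdyl (r = 0.66) and Map4k4 (r = 0.66). These names depend on the measure, since over the 36 libraries 1 of the 3 for Tff1 was kept at a prior count of 0.5 and 1 of the 3 for Muc4 with Spearman's rho.

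Of 10 further genes of gastric surface and neck mucous cells, 7 passed the filter on low counts, and against complete media 3 rose in SCM and 3 with Wnt5a, where 4.96% and 8.29% of all genes tested rose. The median log2 difference over the 7 was 1.25 in SCM and 1.58 with Wnt5a, against 0.01 over all genes tested in each. Vsig1, an adhesion protein of stomach epithelium, rose with Wnt5a by 3.05 (edgeR adjusted p = 1.13e-06), from 1.94 ± 1.08 to 16.05 ± 9.04 CPM (SD, n = 6). Anxa10, an annexin of gastric mucosa, rose by 2.34, from a mean of 79.7 to 404 CPM, and Gkn3, a gastrokine of neck cells, by 2.15, from 1.72 to 7.66 CPM. The same genes rose in SCM against complete media, Gkn3 by 2.31, Vsig1 by 1.93 and Anxa10 by 1.89. In SCM against QCM 1 of the 7 was called, higher, where 0.903% of all genes were called, and the median over the 7 was 0.96. In QCM against complete media only Gkn3 was called among the 7, by 1.35 (edgeR adjusted p = 0.00595), where 0.374% of all genes were called. Gkn3 was lost in QCM with voom, and the replicate block called Anxa10 there besides Gkn3, with all libraries and without replicates 1 and 5. The call of Gkn3 in QCM stood without those replicates, and the counts in SCM and with Wnt5a were 3 each with voom and without replicates 1 and 5. Cldn18, a claudin of stomach and lung, averaged 0.846 ± 0.612 CPM in complete media and 2.53 ± 1.23 with Wnt5a without a call (edgeR adjusted p = 0.0505), and was called by DESeq2 and with the replicate block. Against QCM, Vsig1 (2.80), Anxa10 (1.80) and Gkn3 (1.41) were higher in Wnt5a + anti-Ptk7, where 8.78% of all genes were called higher. In the same comparison Capn9, a calpain of the stomach and intestine, fell by 1.55 (edgeR adjusted p = 0.0406), where 5.92% were called lower. The Capn9 call was lost without replicates 1 and 5. With anti-Ptk7 against IgG none of the 7 was called by edgeR in either medium, where 1.23% of all genes in SCM and 0.884% with Wnt5a were called, and 1 in each had an unadjusted p under 0.05. In SCM, voom, DESeq2 and the replicate block each called Gkn3, at 14.9 ± 4.72 against 8.63 ± 2.20 CPM, and with Wnt5a they called none.

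Several genes of the gastric lists were at or near 0. Gkn2 and Chia1 had no count in any library, and Gkn1, Muc6, Cblif, Atp4b and Sox2 had group means of at most 0.117 CPM. Of 6 genes of chief and parietal cells only Atp4a, a proton pump subunit, passed the filter, at group means from 1.33 to 3.70 CPM, highest in complete media and without a call. The intestinal factors Cdx1 (418 to 629 CPM), Cdx2 (201 to 268 CPM) and Hnf4a (785 to 872 CPM) were high in every condition and not called in any comparison. Cdx1 was nonetheless lower with Wnt5a than in complete media by a log2 difference of -0.50 (edgeR adjusted p = 9.57e-05) without overlap of the libraries, and in SCM by -0.30 (edgeR adjusted p = 0.0225), changes under the 1.5-fold limit. Of 9 gastric and intestinal transcription factors tested, Sox21 alone was called, 1 of 9 where 4.96% of all genes rose in SCM and 8.29% with Wnt5a, with a rise of 1.61 in SCM and of 2.24 with Wnt5a against complete media (16.6 ± 7.45 to 78.4 ± 39.9 CPM). Sox21 is a repressor of the Sox family. Against QCM none of the 9 was called in SCM or in SCM + anti-Ptk7, where 0.903% and 3.05% of all genes were called. In Wnt5a + anti-Ptk7 against QCM 1 of the 9 was called higher, where 8.78% of all genes were. The replicate block without replicates 1 and 5 also called Sox21 higher in QCM than in complete media. None of the 9 changed with anti-Ptk7 in either medium by edgeR, voom or DESeq2, while 2 had an unadjusted p under 0.05 with Wnt5a, and 1.23% of all genes in SCM and 0.884% with Wnt5a were called.

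**Figure D4:**
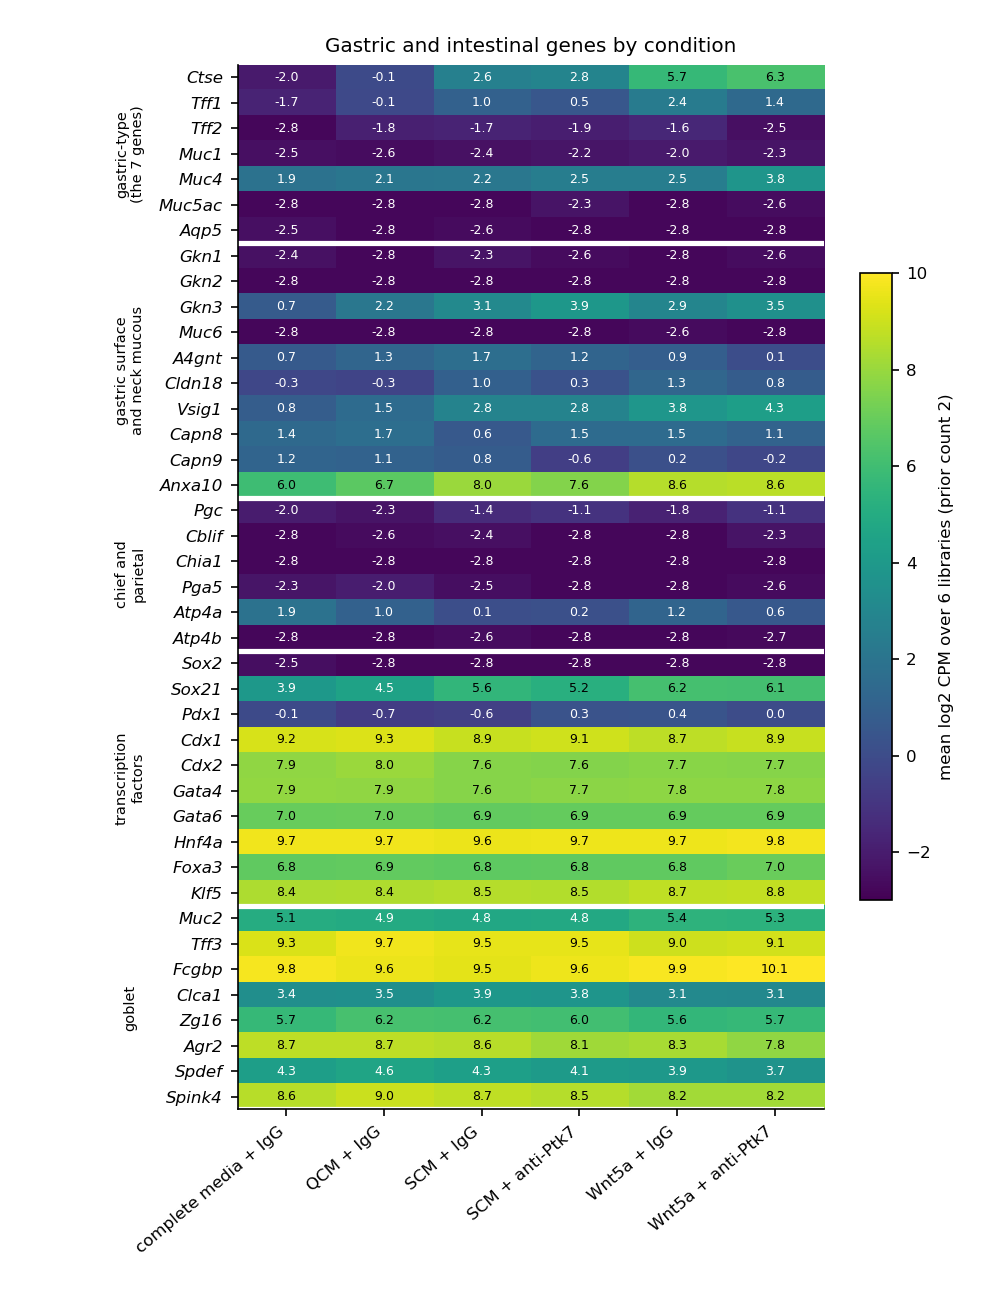
Mean log2 CPM over 6 libraries (prior count 2) for the 7 genes and for lists of gastric and intestinal genes, by condition, with the value printed in each cell. Gkn3, Vsig1, Anxa10 and Sox21 are higher in SCM and with Wnt5a than in complete media. The stomach genes Gkn1, Gkn2, Muc6, Chia1 and Atp4b are at or near 0 CPM in every condition, and Cdx1, Cdx2 and Hnf4a stay high.

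Of 8 goblet cell genes of the small intestine none was called against complete media in QCM, SCM or with Wnt5a by edgeR, voom or DESeq2, and 2, 1 and 1 had an unadjusted p under 0.05. Over all genes tested 0.374%, 6.08% and 10.2% were called, so a count of 0 among 8 is near that share. Muc2 averaged 36.004 CPM in complete media, 28.6 in SCM and 44.0 with Wnt5a, and Tff3 609 CPM in complete media, 730 in SCM and 533 with Wnt5a. Against QCM, 3 of the 8 fell in Wnt5a + anti-Ptk7, where 5.92% of the genes were called lower. They were Spdef (by 0.92 on the log2 scale), the goblet cell transcription factor, Agr2 (by 0.83), a disulfide isomerase needed for Muc2, and Spink4 (by 0.73). Of the mucins other than the 3 studied here, Muc2 among them, 5 of 10 matched genes passed the filter. None of the 5 was called in the 3 media against complete media by edgeR, voom or DESeq2, with no unadjusted p under 0.05, which at the same shares of all genes is no result about mucins. The membrane mucin Muc13 had group means from 295 to 376 CPM.

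Among the other aquaporins, 6 of 7 passed the filter. The water channels Aqp1 and Aqp4 fell against complete media, Aqp1 by 1.07 in SCM and by 0.85 with Wnt5a, and Aqp4 by 0.83 and by 0.87, where 1.12% of all genes were called lower in SCM and 1.88% with Wnt5a. Mean Aqp1 was 356 CPM in complete media, 169 in SCM and 198 with Wnt5a. Aqp9 was called higher with Wnt5a (3.94, edgeR adjusted p = 0.0175) at a mean of 0.961 against 0.0492 CPM, and lost the call without replicates 1 and 5. Of the other cathepsins and aspartic proteases, 12 of 14 passed the filter, and 2 rose in SCM and 3 with Wnt5a, where 4.96% and 8.29% of all genes rose. The lysosomal cysteine proteases Ctsh and Ctsl rose by 1.20 and 1.04 in SCM and by 1.16 and 1.43 with Wnt5a, and the aspartic protease Bace2 by 0.65 with Wnt5a, a call that voom did not make. Ctsd, the lysosomal aspartic protease, was not called at group means from 383 to 520 CPM, since its fold with Wnt5a (1.34, edgeR adjusted p = 0.0103) was under the limit of 1.5. The median over the 12 was 0.28 with Wnt5a. With anti-Ptk7 against IgG, where 1.23% of all genes in SCM and 0.884% with Wnt5a were called, no aquaporin or protease was called by edgeR, while DESeq2 and the replicate block each called the cathepsins Ctsf higher in SCM and Ctss higher with Wnt5a, and the block also called Aqp4 higher in SCM.

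Of 11 enzymes of mucin O-glycosylation tested, 4 rose with Wnt5a, where 8.29% of all genes did, and 1 in SCM, where 4.96% did, against complete media. Gcnt1, which branches core 1 glycans, rose by 2.84 with Wnt5a (5.08 to 36.1 CPM, edgeR adjusted p = 2.06e-06) and by 1.98 in SCM. Gcnt3, the mucin-type branching enzyme, rose by 1.16, Galnt3, which starts the chains, by 0.83, and C1galt1, which makes core 1, by 0.60. The median over the 11 was 0.13 with Wnt5a, and the count was 3 without replicates 1 and 5 and also with voom, as C1galt1 was lost in each. In Wnt5a + anti-Ptk7 against QCM, which shares no library with these comparisons, Gcnt3 (1.40), Gcnt1 (1.33), Galnt3 (1.02) and C1galt1 (0.77) were called higher, where 8.78% of all genes were. With anti-Ptk7 Gcnt1 averaged 11.4 ± 2.96 against 19.9 ± 7.49 CPM in SCM and 19.2 ± 11.995 against 36.1 ± 22.9 with Wnt5a, uncalled by edgeR without a block and called lower in both media with the replicate number as a block.

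Markers of other cell types were read in the same libraries. The 9 markers of small intestinal epithelium were all over 0.5 CPM in every condition. Their sum ran from 5605 to 6130 CPM in complete media and from 6111 to 6980 in QCM + IgG. It ran from 6676 to 7656 CPM in SCM + IgG and from 7126 to 8002 in Wnt5a + IgG. Of 8 fibroblast markers only Pdgfrb was over 0.5 CPM, with Col3a1, Dcn and Thy1 at 0 in every library and sums from 0 to 7.36 CPM. Of 7 immune markers 3 were over 0.5 CPM, with sums from 10.6 to 20.7 CPM and Itgax at 0. Of the 5 markers of M cells 4 were over 0.5 CPM overall and the defining Gp2 was at 0 in every library. The sum of the M cell markers ran from 68.2 to 74.8 CPM in complete media, from 98.2 to 107.6 in SCM + IgG with no overlap, from 94.2 to 143 in Wnt5a + IgG and from 99.7 to 220 in Wnt5a + anti-Ptk7, mostly from Marcksl1. Ccl9 of this list was called higher in SCM than in complete media (0.90 on the log2 scale, edgeR adjusted p = 0.0229) and Marcksl1 with Wnt5a (0.78, edgeR adjusted p = 0.00108), in each case 1 of 4 tested, where 4.96% and 8.29% of all genes rose. The Marcksl1 call was lost without replicates 1 and 5, with or without the replicate block. Tnfaip2 was called higher with anti-Ptk7 in SCM (1.73, edgeR adjusted p = 0.019), 1 of 4 tested, where 1.23% of all genes were called. In Wnt5a + anti-Ptk7 Marcksl1 was called higher and Ccl9 lower, both against QCM and against SCM + anti-Ptk7. Of all genes 8.78% were called higher and 5.92% lower against QCM, and 1.53% in either direction against SCM + anti-Ptk7. The part of these shifts in the Ctse and Tff1 values was not tested. Of the 7 stomach markers only Atp4a was over 0.5 CPM, with sums from 0.195 to 5.76 CPM.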

How the data were processed

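RNA from 36 organoid cultures was made into cDNA with Smart-Seq v4 and sequenced as single-end reads. The authors aligned reads to the mouse genome (NCBI Build 38, mm10) with GSNAP through HTSeqGenie and deposited raw counts of reads within coding sequences per Ensembl gene. The strand setting and annotation release are not given in the sources used here. All 36 samples were grouped by their labels. The 7 genes and all gene lists were chosen with earlier results of these data known.

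Counts were fitted with edgeR 4.0.16 (R 4.3.3) by the quasi-likelihood F-test in a model of 6 group means, after filterByExpr and TMM scaling. A call needed both a Benjamini-Hochberg adjusted p under 0.05 and a change of more than 1.5-fold. The 95% intervals are 1.96 SE on each side. Ctse was also compared by exact two-sided permutation tests of log2 CPM (prior count 2) over libraries (scipy 1.17.1). Alternatives were voom on quantile-normalized values with limma 3.58.1, the study's own method, DESeq2 1.42.0, other scalings, filters and fold limits, a replicate block and leaving out each library, and, chosen after seeing the data, leaving out replicates 1 and 5. On simulated counts for Wnt5a against complete media (15248 genes), edgeR recovered 84 of 101 genes changed 2-fold and 96 of 99 changed 4-fold, with 3 false calls. Totals of 9581589 to 21029769 counts set the precision, and floors of 3 counts cover counting error only.

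The 3 genes named as most like each detected gene had the highest Pearson r over 36 libraries. Genes of the lists were named where they were called or define a cell type. Gene positions are from GENCODE M21 and promoter letters from RefSeq. The replicate numbers were checked for pairing. Deviations from group means correlated at a mean of 0.092 over 90 pairs of libraries with the same number, 34 of them over 0.1, and at -0.018 over 450 pairs with different numbers. The mean was 0.241 for number 1 and 0.134 for number 3, and 0.0231 to 0.0627 for the others. The labels do not tie numbers to mice, so the fit without a block was kept.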

Additional observations from a re-analysis of the deposited data

How the results depend on the processing

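Ctse kept its direction and its calls in Wnt5a + anti-Ptk7 against QCM and against SCM + anti-Ptk7 under every alternative run. It lost the call in SCM + anti-Ptk7 against QCM with voom (3.22, adjusted p = 0.147). In QCM against complete media it passed the threshold with the replicate block alone (2.49), in libraries that also served to pick it, so this is not read as a test. No called result reversed, while the uncalled difference of anti-Ptk7 from IgG in SCM ran from -0.35 to 0.38. The causes were not tested.

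Of the 6 other genes, those called changed as follows. In QCM against complete media the count went from 0 to 1 with the replicate block, without replicates 1 and 5, and with both. It went from 1 to 0 in SCM against complete media with voom, and from 1 to 2 with Wnt5a against complete media with no filter on low counts. For anti-Ptk7 against IgG with Wnt5a it went from 1 to 0 with no filter, with only the groups compared, without replicates 1 and 5, and with the block added to that, and ran from 0 to 1 with each library left out. For Wnt5a + anti-Ptk7 against QCM it went from 1 to 2 with the replicate block and to 0 without replicates 1 and 5, and ran from 1 to 2 with each library left out. Against SCM + anti-Ptk7 it went from 1 to 0 with only the groups compared, without replicates 1 and 5, and with the block added to that, and ran from 0 to 1 with each library left out. The replicate block changed no other call of the 7 genes.

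Over all genes, calls numbered 58 in QCM against complete media (24 to 178 over the alternatives), 942 in SCM (524 to 1842) and 1576 with Wnt5a (850 to 3386). They numbered 140 in SCM against QCM (35 to 496), 190 with anti-Ptk7 in SCM (86 to 422) and 137 with Wnt5a (57 to 398). Against QCM they numbered 473 in SCM + anti-Ptk7 (186 to 1474) and 2279 in Wnt5a + anti-Ptk7 (853 to 5071), and between these 2 conditions 237 (11 to 629). Genes under 0.5 CPM rested on too few counts for a comparison.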
